A study of Mus musculus with 77 samples.

Results

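The regions described are 205 promoter intervals in which p53 was called bound in B6 bone marrow-derived macrophages under hyperoxia and not in room air. Bone marrow-derived macrophages (BMDM) are macrophages grown in culture from bone marrow. An interval was taken when the B6 hyperoxia peak list held it, when it shared no base with a peak of the B6 room-air list, and when its midpoint lay within 1 kb of an annotated transcription start site. The 205 were found among 3500 intervals of the B6 hyperoxia list, and among 11305 intervals in all 10 p53 peak lists of the series. They lay within 1 kb of the start sites of 230 genes, since 24 of them had 2 or more start sites in reach. The peak calls themselves chose these regions, so their scores are given as a description and carry no test.

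The series compared hyperoxia with room air in lungs and macrophages of C57BL/6J (B6), Trem2 knockout (KO) and DBA/2J (DBA) mice. The macrophage groups were KO, DBA and B6 cells, each under hyperoxia or room air for 24 h. RNA was sequenced in 2 libraries of each of the 6 groups, and p53 chromatin immunoprecipitation (ChIP, the sequencing of DNA that an antibody against p53 pulls down) was done in KO and B6 cells, with 2 libraries a group that the authors pooled before calling peaks. The labels do not state the oxygen share of the macrophage exposure, and the lung lists come from pups kept in 75% oxygen or room air until day 14 after birth. KO ChIP libraries were grouped by their titles, because their genotype label reads as B6, and their peaks were called against the B6 input. The labels do not say that libraries of a group came from separate cultures or animals, and the tests can see no more than how these libraries spread, which may be technical. The B6 RNA libraries are told apart in the table by the marks F and MF, whose meaning is not stated. They carry another date code than the KO and DBA columns, so genotype differences cannot be told apart from that date.

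The transcription factor p53 binds DNA as a tetramer at a site made of a pair of short repeats, and after DNA damage or oxidative stress it switches on genes that stop the cell cycle, repair DNA, limit growth signalling or start cell death. Its best known feedback is Mdm2, the ubiquitin ligase that marks p53 for destruction and that p53 itself induces through a promoter in the first intron of Mdm2. Macrophages carry Trem2, a lipid-sensing surface receptor, and it is the gene deleted in the KO.

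Of the 205 regions, 39 lay whole in the RefSeq promoter windows at hand, 42 lay in part and 124 lay outside them. None of the 81 with sequence held the p53 full site (20 bases, both strands searched) without a mismatch. Rps27l and Gtse1 matched it with 1 mismatch, and Pid1, Cd80, Rab21 and AU040972 with 2. These 6 are printed 5′ to 3′ on the strand of the gene, as far as the window reaches, with the best match in capitals. Trem2 is printed in lower case as the gene deleted in the study, since its nearest match had 5 mismatches. The sequences are RefSeq, build GRCm38.p6, whose coordinates are those of mm10.
Rps27l: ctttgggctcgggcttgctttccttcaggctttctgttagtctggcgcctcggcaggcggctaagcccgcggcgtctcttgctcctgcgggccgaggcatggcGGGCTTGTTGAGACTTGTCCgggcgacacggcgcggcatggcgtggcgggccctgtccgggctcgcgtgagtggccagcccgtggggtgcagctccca
Gtse1: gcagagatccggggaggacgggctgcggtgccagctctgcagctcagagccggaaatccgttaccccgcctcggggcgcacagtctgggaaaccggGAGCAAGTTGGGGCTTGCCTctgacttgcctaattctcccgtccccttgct
Pid1: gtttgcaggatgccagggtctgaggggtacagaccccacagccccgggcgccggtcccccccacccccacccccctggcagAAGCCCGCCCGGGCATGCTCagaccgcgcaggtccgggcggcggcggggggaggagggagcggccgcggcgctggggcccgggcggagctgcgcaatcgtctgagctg
Cd80: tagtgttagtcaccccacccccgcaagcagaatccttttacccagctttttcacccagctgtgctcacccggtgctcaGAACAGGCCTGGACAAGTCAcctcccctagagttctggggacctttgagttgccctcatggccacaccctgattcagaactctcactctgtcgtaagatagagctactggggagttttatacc
Rab21: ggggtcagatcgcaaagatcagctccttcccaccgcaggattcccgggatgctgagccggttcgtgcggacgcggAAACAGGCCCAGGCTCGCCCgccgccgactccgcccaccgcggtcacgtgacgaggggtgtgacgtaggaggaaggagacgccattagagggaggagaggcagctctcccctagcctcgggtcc
AU040972: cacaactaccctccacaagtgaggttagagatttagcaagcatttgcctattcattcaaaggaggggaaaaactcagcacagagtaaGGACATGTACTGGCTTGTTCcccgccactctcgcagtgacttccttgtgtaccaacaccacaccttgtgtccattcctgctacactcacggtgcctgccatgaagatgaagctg
Trem2: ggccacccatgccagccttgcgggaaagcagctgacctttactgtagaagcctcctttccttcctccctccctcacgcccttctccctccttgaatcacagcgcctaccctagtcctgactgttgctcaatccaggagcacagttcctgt
The intervals printed were chr9:66946193-66946393 at Rps27l (plus strand), chr15:85859849-85859995 at Gtse1 (plus), chr1:84284596-84284784 at Pid1 (minus), chr16:38458744-38458944 at Cd80 (plus), chr10:115315542-115315740 at Rab21 (minus), chr11:79484002-79484202 at AU040972 (minus) and chr17:48346301-48346450 at Trem2 (plus). In every case of the 6 the matched site lay close to the middle of its peak. The distance of the site's centre to the peak's centre was 3.5 bases at AU040972, 5.5 at Gtse1, 9.5 at Pid1, 12.5 at Rps27l, 12.5 at Cd80 and 15.5 at Rab21. The rule that chose the regions used no sequence. No such distance was taken in other peaks or windows, so the position of these 6 is a description.

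A match with up to 2 mismatches was found in 3 of the 39 regions with complete sequence (7.69%), against 0 of 65 room-air-only promoter peaks and 169 of 32841 promoter windows of the same length (0.515%). With up to 3 mismatches the counts were 6 of 39 (15.4%), against 1 of 65 (1.54%) and 1334 of 32841 (4.06%). Of the 8 kept promoter peaks with complete sequence, 1 held a match with up to 2 mismatches (12.5%) and 3 with up to 3 (37.5%). In whole start-site windows of genes near the regions, 4 of 164 held a match with up to 2 mismatches (2.44%), against 0 of 241 near room-air-only peaks and 0.726% of the windows of all genes. Most of the regions with complete sequence, 33 of 39, held no match with up to 3 mismatches. The p53 half-site (10 bases, 1 of the pair of repeats, no mismatch) went the other way. It was in 1 of 39 regions (2.56%), against 5 of 65 room-air-only peaks (7.69%) and 5.6% of all windows. Of the 8 kept peaks 3 held it (37.5%). In start-site windows it was in 4.88% near the regions, against 7.05% near room-air-only peaks and 7.35% of all genes. Among other motifs searched on both strands, the GC box GGGCGG, which Sp1 binds, was in 48.7% of the 39 regions, against 63.1% of room-air-only peaks and 31.1% of all windows. The median content of G and C was 66.2% in the regions, 63.7% in room-air-only peaks and 53.2% in all windows. These shares rest on few regions and are descriptions, not sites of binding.

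Peak scores were low in most of the 205 regions. The score is the authors' count of sequenced fragments (tags) in the peak, scaled to a pool of 10 M (mega) tags, and it ran between 8 and 78 with a median of 15 and quartiles of 13 and 20. A score of 15 corresponds to about 11.8 tags in a pool of 7.85 M tags, and 12 tags have a 95% counting interval of 6.2 to 20.96. The 303 promoter peaks of the room-air list that hyperoxia lacked had a median score of 14 (9 to 36), while the 30 promoter peaks kept in both airs had a median of 56.5 (15 to 401). The room-air pool of 7.76 M tags was of nearly equal depth. The file headers give a limit of 8 tags for either list, although the lowest score corresponds to 6.28 tags, so absence from the room-air list does not show an absence of binding, and the lists also asked for 4-fold more tags than input. In 70 of the 205 regions (34.1%) the interval of the hyperoxia tags lay above 8, and in the other 135 it reached 8. Intervals cover counting error only, since the lists are pooled and no replicate values were used here.

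**Figure D1:**
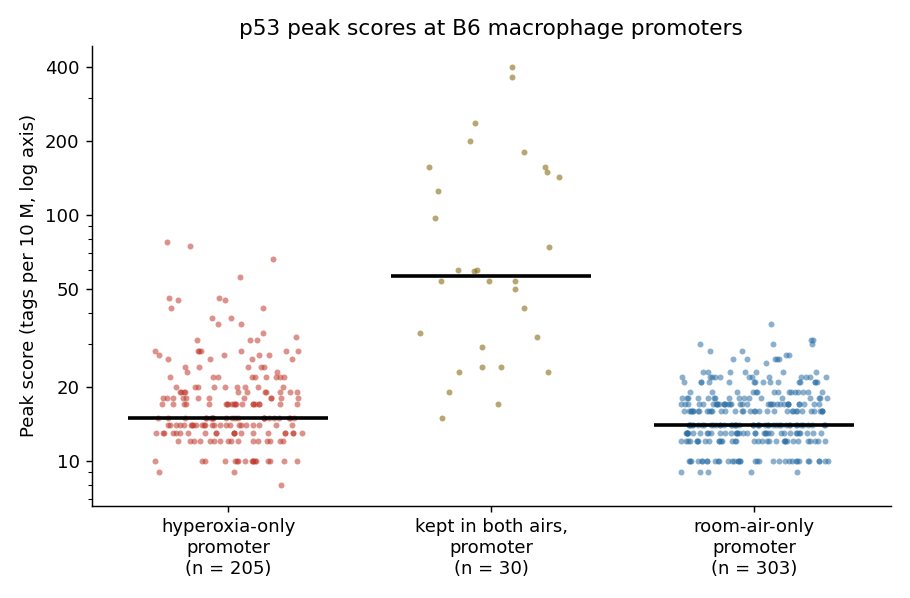
Peak scores (tags per 10 M, log axis) of promoter peaks in B6 macrophages, with a point per peak and a bar at the median. Hyperoxia-only peaks (n = 205, scores from the hyperoxia list) and room-air-only peaks (n = 303, scores from the room-air list) have medians of 15 and 14, and peaks kept in both airs (n = 30, scores from the hyperoxia list) have a median of 56.5.

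The highest score, 78, was at Mdm2, in an interval centred 671 bases downstream of the start site (chr10:117709987-117710187, build mm10). Kansl1, a subunit of the NSL histone acetyltransferase complex, followed with 75, and Rps27l, a ribosomal protein paralog that p53 induces, with 66. Then came Tubb4b, a beta-tubulin, with 56, Pid1, a phosphotyrosine-binding adaptor, with 46, and Rnf169, a ubiquitin-binding protein at DNA breaks, with 46. Slc19a2, a thiamine transporter, and the unnamed locus A930007A09Rik scored 45 each. Cd80, a costimulatory ligand for T cells, and Rnu11, the U11 RNA of the minor spliceosome, scored 42 each. Trem2 had a score of 24 (about 18.8 tags, interval 11.44 to 29.67), and its peak midpoint fell on the start site itself. No other list of the series held a peak within 1 kb of the Trem2 start site.

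Peak midpoints lay a median of 253 bases from the nearest start site, 114 of them upstream, 90 downstream and 1 at the site. Within 250 bases lay 49.8% of the regions, against 62.0% of room-air-only promoter peaks. The nearest to the 1 kb limit on the inside was Plxna4os1, at 983 bases with a score of 12, and the nearest outside were Csnk1g1 and Mcts1, at 1009 bases with scores of 37 and 15. A room-air peak lay next to the hyperoxia peak without touching it at Rdm1, Rps27l and Rnu11, with midpoints 222 bases apart at Rdm1, 291 at Rps27l and 378 at Rnu11. At Rps27l both calls therefore sat in the same promoter. Over all 205 the nearest room-air midpoint was a median of 81987 bases away.

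**Figure D2:**
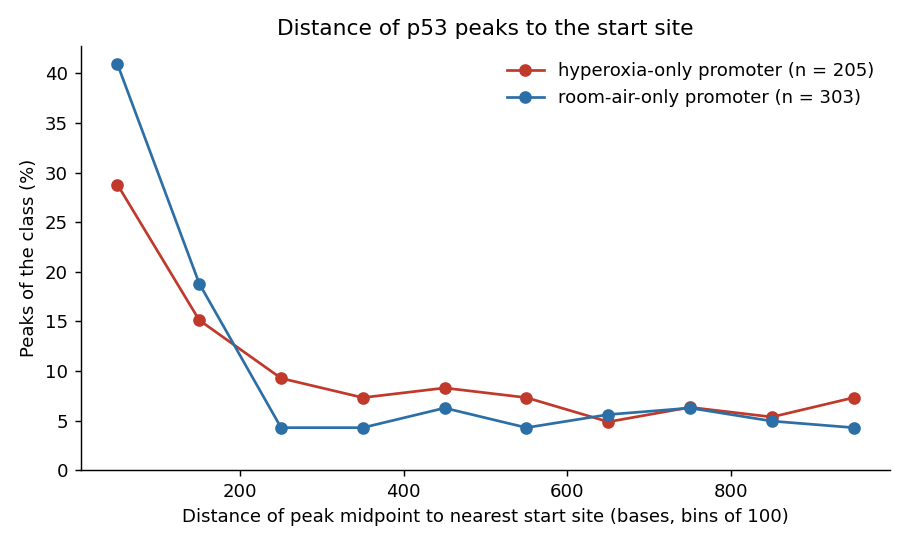
Distance of the peak midpoint to the nearest start site (bases, in bins of 100) as a share of the peaks of each class. The first bin holds 28.8% of hyperoxia-only promoter peaks and 40.9% of room-air-only promoter peaks.

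None of the 205 regions overlapped a p53 peak of KO macrophages in hyperoxia or in room air, and the nearest KO hyperoxia midpoint was 2398 bases away. Of the 30 promoter peaks kept in both airs, 8 overlapped the KO hyperoxia list (26.7%), against 0 of the 303 room-air-only promoter peaks and 14 of the 2997 hyperoxia-only peaks farther from a start site (0.467%). The KO pools held 5.78 and 5.57 M tags and gave 1320 and 1263 peaks, against 7.85 and 7.76 M tags and 3500 and 4107 peaks in B6. The part of that lower depth in the absence was not tested. In B6 hyperoxia lungs, 7 of the 205 (3.41%) were also peaks, against 11 of the 30 kept promoter peaks (36.7%) and 0 of the 303 room-air-only ones. These 7 were at Mdm2, Kansl1, Tubb4b, Rhbdf2, R74862, the shared promoter of Gm13363 and Ptp4a1, and Eda2r. Their lung scores were 9 at Mdm2, 13 at Kansl1, 13 at Tubb4b, 8 at Rhbdf2, 7 at R74862, 5 at Gm13363 and 12 at Eda2r, and the lung midpoints lay between 12 bases (Mdm2) and 87 bases (Eda2r) from the macrophage midpoints. Mdm2 was also in the B6 room-air lung list, with a score of 5, and Eda2r in the KO hyperoxia lung list, with a score of 8. The DBA lung lists held none of the 205.

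p53 target genes were the list with the largest share of genes at these regions. Of 48 known p53 targets, 11 had a hyperoxia-only promoter peak (22.9%), 10 a kept one and 1 a room-air-only one. Of all 24940 genes, 230 (0.922%), 31 and 342 had such peaks. Among genes with enough RNA for the test given below, 11 of 47 targets had a hyperoxia-only promoter peak, against 197 of 12320 genes. The list was written with earlier results of these data known, so its share is not independent evidence. The 11 were Mdm2, Rps27l, Pmaip1, Gdf15, Mgmt, Sesn2, Ddit4, Gtse1, Ephx1, Eda2r and Tnfrsf10b, with scores between 78 and 9, and the room-air-only one was Rps27l again. Among the other 16 lists no more than 2 genes had such a peak: Nars (asparaginyl-tRNA synthetase) and Sesn2 of 25 ATF4 and tRNA synthetase genes, Cox5a and Ndufs5 of 69 respiratory chain genes, and a single gene each of the p53 regulators (Mdm2), macrophage identity (Trem2), NRF2 and glutathione (Mgst1), ribosome biogenesis (Polr1a), cell cycle (Ccnd3) and chromatin (Arid1a) lists. The lists for DNA repair, RNA splicing, cytosolic and mitochondrial ribosomal proteins, inflammatory cytokines, interferon response, lysosome and proteasome had 0. Cdkn1a, which encodes the cell cycle inhibitor p21, had no peak within 1 kb of its start site. Its peak 2830 bases upstream was in both B6 lists, with a score of 385 in hyperoxia and 149 in room air, and a hyperoxia-only peak with a score of 172 lay 1943 bases upstream. Trp53, which encodes p53, had none.

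**Figure D3:**
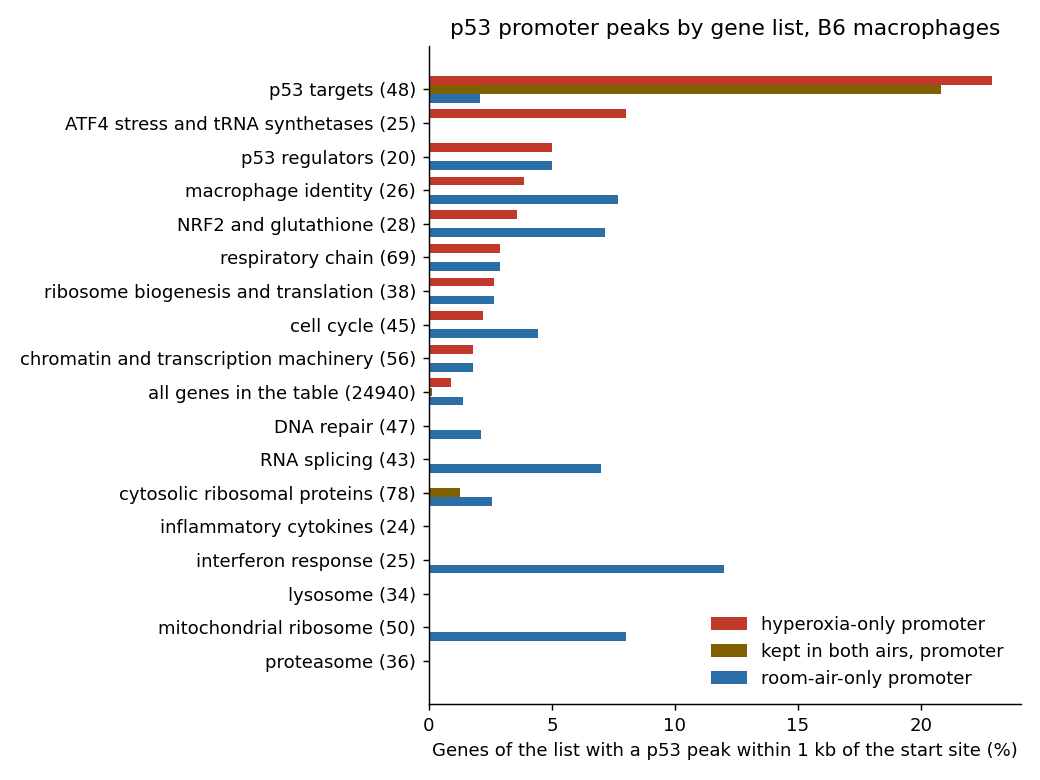
Share of the genes of each list (number of genes in brackets) with a p53 peak within 1 kb of the start site in B6 macrophages, for hyperoxia-only, kept and room-air-only promoter peaks. The p53 target list stands at 22.9%, 20.8% and 2.08%, against 0.922%, 0.124% and 1.37% of all genes in the table. The lists were written with earlier results of these data known.

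RNA of the macrophage groups was then read at these genes, which the choice of the regions did not use. Levels are in TPM (transcript counts scaled for length and library total), and a change is the difference in mean log2(TPM + 1) between hyperoxia and room air, tested with limma over 12320 genes with Benjamini-Hochberg adjustment and called at an adjusted p under 0.05. Of the 230 genes, 197 were expressed at the level needed for testing (at least 1 TPM in any 2 of the 12 libraries) and 33 were not. Within a genotype, 11 of the 197 did not reach that level in 2 libraries of B6, 9 in KO and 9 in DBA. Of all 12320 genes tested these were 1083, 589 and 649. Calls counted below include such genes: Soat2 in B6, Cda, Hmmr, Olfml2b and Soat2 in KO, and Hmmr in DBA. Trem2, the knocked-out gene, was read first. It had 252 and 243 TPM in KO cells in hyperoxia and 236 and 239 TPM in KO cells in room air, 1021 and 1007 TPM in DBA cells in hyperoxia and 1096 and 1030 TPM in DBA cells in room air, against 917 and 908 TPM in B6 cells in hyperoxia and 962 and 948 TPM in B6 cells in room air. The KO level was thus 27.1% of B6 in hyperoxia and 24.9% in room air, in every library below every B6 library, so RNA of the gene was still counted in the KO. The table does not say which part of the transcript was counted. With hyperoxia Trem2 changed by -0.07 on the log2 scale in B6 (95% interval -0.18 to 0.05, adjusted p = 0.367), so its promoter peak was not joined by a called change of its RNA.

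Macrophage markers were high in all libraries, with a summed level between 15790 and 24280 TPM over 7 genes. The sum was 18430 to 18700 TPM in B6 hyperoxia, against 24130 to 24280 TPM in B6 room air. Most of it was Lyz2, with means of 14400 TPM in B6 hyperoxia and 20100 TPM in B6 room air. Cd68 went the other way, with B6 means of 2830 TPM in hyperoxia and 2280 TPM in room air. It was also higher in hyperoxia in KO and DBA, while the rest of the 7 were lower in all 3 genotypes. Markers of other cells moved as well. The 7 neutrophil markers summed to 2.99 to 7.37 TPM in B6 hyperoxia, against 23.5 to 40.1 TPM in B6 room air, with Ly6g at 0 throughout. They summed to 7.98 to 10.1 TPM in KO hyperoxia, against 44.1 to 83.7 TPM in KO room air, and to 2.38 to 2.86 TPM in DBA hyperoxia, against 4.90 to 6.77 TPM in DBA room air. The 6 fibroblast markers summed to 0.069 to 0.142 TPM in B6 hyperoxia, against 0.459 to 0.682 TPM in B6 room air, but to 24.7 to 32.2 TPM in KO hyperoxia, against 87.9 to 110.4 TPM in KO room air, and to 30.6 to 34.5 TPM in DBA hyperoxia, against 78.0 to 91.1 TPM in DBA room air. The 6 dendritic cell markers, nearly all of it Clec10a, summed to 10.8 to 18.9 TPM in B6 hyperoxia, against 18 to 35.8 TPM in B6 room air. Their sums were higher in KO, at 54.9 to 56.1 TPM in hyperoxia, against 91.2 to 92.6 TPM in room air. In DBA they were 54.4 to 55.6 TPM in hyperoxia, against 62.4 to 68.5 TPM in room air. Lymphocyte and erythroid markers stayed under 1 TPM in sum, and osteoclast markers lay between 8.68 and 49.2 TPM. The 5 mast cell markers, most of it Kit in B6 and KO, summed to 4.45 to 4.46 TPM in B6 hyperoxia, against 2.68 to 3.12 TPM in B6 room air, to 2.74 to 2.95 TPM in KO hyperoxia, against 1.07 to 1.09 TPM in KO room air, and to 0.366 to 0.421 TPM in DBA hyperoxia, against 0.057 to 0.13 TPM in DBA room air. In B6, Kit had means of 4.39 TPM in hyperoxia and 2.25 TPM in room air. Cpa3 went the other way in B6, with 0.0255 TPM in hyperoxia and 0.599 TPM in room air. Fcer1a was also lower in B6 hyperoxia, at 0 against 0.034 TPM, and Ms4a2 higher, at 0.037 against 0.0125 TPM. Mcpt4 was at 0 throughout. In these bulk samples fewer cells of a type and less RNA per cell cannot be told apart, and the part of other cells in the changes given was not tested.

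In B6 cells, 23 of the 197 tested genes rose with hyperoxia (11.7%) and 51 fell (25.9%), against 5.68% of all genes tested that rose and 22.8% that fell. The median change was -0.12 on the log2 scale, against -0.13 over all genes. Genes of kept promoter peaks had 9 of 28 that rose (32.1%) and 7 that fell, and genes of room-air-only promoter peaks had 10 of 305 that rose (3.28%) and 86 that fell (28.2%). Hyperoxia lowered the median of all genes on the TPM scale, and quantile normalization, which sets all libraries to the same distribution, moved that median to 0.01. The members' count was then 27 that rose and 29 that fell with a median of 0.00, beside 1269 and 1306 of all genes. Without the B6 room-air library marked MF, 45 of the genes were called (22.8%, against 15.8% of all genes tested), and without the B6 hyperoxia library marked F, 49 (24.9%, against 18.9%), beside 74 with all libraries (37.6%, against 28.5%). In a fit to the 4 B6 libraries alone 22 of 186 were called (11.8%, against 8.9% of all genes), and 11 of the 24 B6 calls among the genes named here were lost, those of Mgmt, Rps27l, H1f0, Zfp36l1 and Ms4a4c among them.

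The p53 targets with such a peak had more rises than falls. Of the 11 with a hyperoxia-only promoter peak, 6 rose, 0 fell and 5 did not pass the test, with a median change of 0.48. The 10 with a kept promoter peak had 6 that rose and 2 that fell, and the 26 tested targets with neither had 4 that rose and 6 that fell, with a median of 0.06. The 186 tested genes outside the target list had 17 that rose (9.14%) and 51 that fell (27.4%), with a median of -0.13. The list was written with results of these libraries known and is not independent evidence of its direction.

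Gdf15, a secreted stress cytokine of the TGF-beta family, rose most of the genes named here. It had 194 and 230 TPM in the 2 B6 hyperoxia libraries, against 14.6 and 20.0 TPM in the 2 B6 room-air libraries. It rose by 3.55 on the log2 scale (SE 0.24, adjusted p = 2.87e-05), and its peak scored 28. Both hyperoxia values lay far above both room-air values, but the gene was named for its called rise, so this is no separate evidence.

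Mdm2 had 106 and 120 TPM in B6 hyperoxia, against 50.2 and 52.8 TPM in B6 room air. The rise was 1.12 (SE 0.08, adjusted p = 3.44e-05). Sesn2, which restrains mTORC1 when amino acids are short, had 15.3 and 18.9 TPM in B6 hyperoxia, against 7.07 and 7.84 TPM in B6 room air, and rose by 1.09 (SE 0.10). Mgmt, the enzyme that removes methyl groups from guanine in DNA, had 11.2 and 16.3 TPM in B6 hyperoxia, against 6.37 and 7.15 TPM in B6 room air, and rose by 0.91 (SE 0.19). For each of these genes the groups did not overlap. They were named for their called rises, so the separation is no separate evidence. Rps27l had 121 and 128 TPM in B6 hyperoxia, against 82.3 and 96.3 TPM in B6 room air, and rose by 0.48 (SE 0.10, adjusted p = 0.00542). Tnfrsf10b, a death receptor for TRAIL, rose by 0.58 at a low level, with 1.64 and 2.92 TPM in B6 hyperoxia, against 0.979 and 1.34 TPM in B6 room air. Its call was lost without the B6 hyperoxia library MF (0.30) or either B6 room-air library (0.46 and 0.70), and without any of 6 KO and DBA libraries.

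The other p53 targets with a hyperoxia-only promoter peak did not pass the test in B6. Pmaip1, which encodes the death-promoting protein Noxa, had 8.80 and 11.4 TPM in B6 hyperoxia, against 8.06 and 11.7 TPM in B6 room air, and its peak scored 28 as that of Gdf15 did. The groups overlapped, and the change was 0.04 with an interval of -0.34 to 0.42. Ddit4, an inhibitor of mTORC1, had 0.829 and 2.13 TPM in B6 hyperoxia, against 0.759 and 1.24 TPM in B6 room air. Gtse1, which is expressed in the G2 and S phases and restrains p53, holds 1 of the 2 closest p53 site matches printed above. It had 3.40 and 4.88 TPM in B6 hyperoxia, against 3.76 and 5.83 TPM in B6 room air, a change of -0.16 with an interval of -0.57 to 0.24. Ephx1, an epoxide hydrolase, changed by -0.03 and Eda2r, a receptor of the TNF family, by 0.18, and Eda2r had no more than 0.299 TPM in any B6 library.

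**Figure D4:**
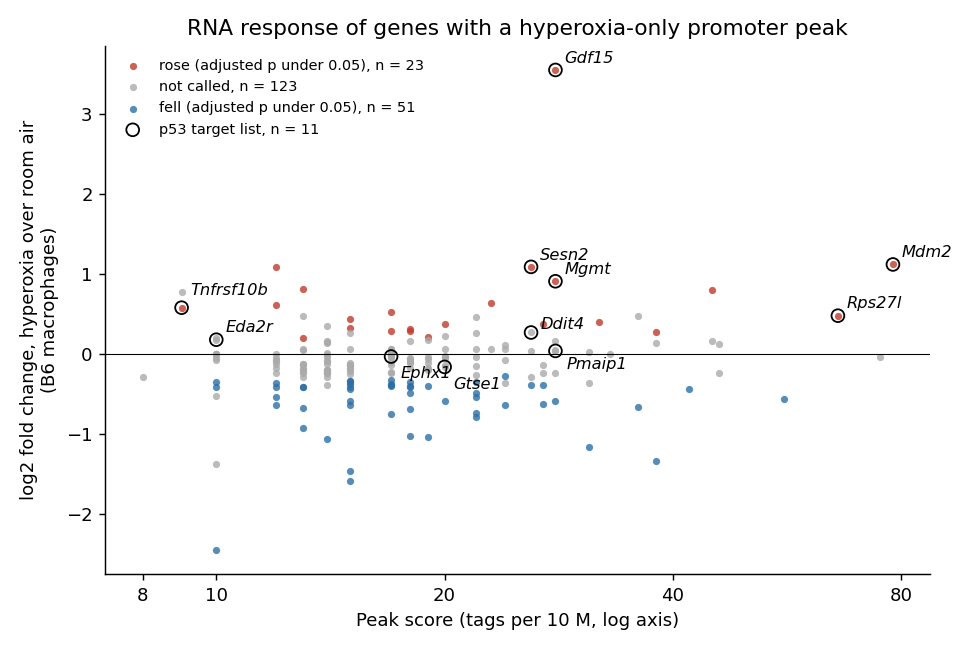
log2 fold change of RNA, hyperoxia over room air in B6 macrophages, against the peak score (tags per 10 M, log axis) for the 197 tested genes with a hyperoxia-only promoter peak. Red points rose (n = 23), blue points fell (n = 51), grey points were not called (n = 123), and rings mark 11 p53 targets, of which Gdf15 stands at 3.55 and Mdm2 at 1.12.

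High peak scores were not tied to a rise in every case. Of the 10 regions with the highest scores, Mdm2, Rps27l and Slc19a2 stood at genes that rose, and Tubb4b and Cd80 at genes that fell. Slc19a2 had 6.00 and 7.69 TPM in B6 hyperoxia, against 3.59 and 3.36 TPM in B6 room air, and rose by 0.80 (SE 0.11). Tubb4b had 53 and 55.2 TPM in B6 hyperoxia, against 74.2 and 87.0 TPM in B6 room air, and fell by 0.56 (SE 0.09, adjusted p = 0.00209). Kansl1, with the second highest score, had 25.4 and 27 TPM in B6 hyperoxia, against 25.9 and 27.7 TPM in B6 room air. Its change of -0.03 had an interval of -0.16 to 0.10, so a change the size of that of Mdm2 lay outside it. Pid1 changed by -0.24, Rnf169 by 0.13 and A930007A09Rik by 0.17, none of them called, and Rnu11 was listed at 0 in all B6 libraries. Cd80 had 4.24 and 4.49 TPM in B6 hyperoxia, against 5.57 and 7.08 TPM in B6 room air, and its fall of 0.44 was lost without the B6 hyperoxia library F, the B6 hyperoxia library MF or the B6 room-air library MF, and under quantile normalization, where it was -0.25. With the regions split at the upper quartile of the scores, a split chosen after the values were seen, 11 of 64 genes at a score of 20 or more rose (17.2%) and 12 of 133 below it (9.02%), while 26.6% and 25.6% fell.

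Of the 17 genes that rose outside the p53 target list, Rgl1, H1f0 and Mgst1 stood, with Slc19a2 above, among the 8 largest rises at 5 TPM or more, predicted genes aside. Rgl1, an exchange factor for Ral GTPases, had 27.9 and 22.6 TPM in B6 hyperoxia, against 14.7 and 13.2 TPM in B6 room air, a rise of 0.81 (SE 0.10). H1f0, a linker histone of cells that have stopped dividing, had 42.2 and 56.2 TPM in B6 hyperoxia, against 29.8 and 33.5 TPM in B6 room air, a rise of 0.61 (SE 0.11). Mgst1, a microsomal glutathione transferase, rose by 0.52, and its call was lost without the B6 hyperoxia library F (0.38) or the B6 room-air library MF (0.32). Rhbdf2, a regulator of the shedding protease ADAM17 and 1 of the 7 regions shared with lung, had 26.8 and 27.4 TPM in B6 hyperoxia, against 22.9 and 21.8 TPM in B6 room air. Its rise of 0.27 was lost without the same 3 B6 libraries as the fall of Cd80.

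Of the genes named here, Pimreg fell most. Pimreg, a regulator of mitosis, had 0.201 and 1.07 TPM in B6 hyperoxia, against 6.17 and 9.40 TPM in B6 room air, and fell by 2.45 (SE 0.27, adjusted p = 0.000315). Hmmr, a protein of the mitotic spindle named here after its values were seen, had 0.904 and 1.55 TPM in B6 hyperoxia, against 4.21 and 5.01 TPM in B6 room air, and fell by 1.34. It shares its peak, of score 38, with Nudcd2, which changed by 0.14 and was not called. Ccnd3, which encodes cyclin D3, had 14.4 and 17.3 TPM in B6 hyperoxia, against 25.1 and 26.2 TPM in B6 room air, and fell by 0.67. In the cell cycle list as a whole 36 of 45 genes fell in B6, with a median of -1.39, and 1 of the 45 had a hyperoxia-only promoter peak.

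Zfp36l1, which speeds the decay of mRNAs rich in A and U, had 31.1 and 42.7 TPM in B6 hyperoxia, against 66.4 and 103 TPM in B6 room air, and fell by 1.16 (SE 0.18). Il6ra, the receptor of interleukin 6, had 21.3 and 25.9 TPM in B6 hyperoxia, against 36.9 and 43.0 TPM in B6 room air, and fell by 0.74 (SE 0.10). Irgm2, an interferon-induced GTPase, had 7.45 and 8.41 TPM in B6 hyperoxia, against 14.7 and 21.0 TPM in B6 room air, and fell by 1.06. For each of these genes both hyperoxia values were below both room-air values, which their choice as called falls makes likely. F630028O10Rik fell by 1.46 and Ms4a4c, a membrane protein of leukocytes, by 1.59. The falls of Tnip3, a partner of the NF-kB inhibitor A20, by 0.75 and of Syce2, a protein of the synaptonemal complex, by 1.04 were both lost without the B6 hyperoxia library F or the B6 room-air library MF, and that of Syce2 also without the B6 hyperoxia library MF. Of the remaining list genes, Nars, Cox5a, Ndufs5, Polr1a and Arid1a were not called in B6, with changes between -0.12 and 0.06. Trp53 itself fell by 0.62 in B6, and Cdkn1a, with its peaks farther upstream, rose by 1.40.

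KO and DBA cells gave calls from libraries separate from the B6 ones. In KO cells 25 of the 197 genes rose (12.7%) and 34 fell (17.3%), against 6.88% and 16.4% of all genes tested. In DBA cells 19 rose (9.64%) and 30 fell (15.2%), against 5.73% and 13%. Of the 23 genes that rose in B6, 16 also rose in KO, which is 69.6% of the B6 list and 64.0% of the KO list, and 14 rose in DBA (60.9% of the B6 list and 73.7% of the DBA list). Over all genes tested, 65.1% of those that rose in B6 also rose in KO and 57.4% in DBA. The shared rises were 53.8% of the KO list and 56.9% of the DBA list over all genes. Of the 51 that fell in B6, 25 fell in KO (49.0%, against 42.9% over all genes) and 20 in DBA (39.2%, against 34.9%). The shared falls were 73.5% of the KO list (59.9% over all genes) and 66.7% of the DBA list (61.2% over all genes). Of the 74 genes, 0 were called in the opposite direction in either. That count was not taken over all genes, so it does not set these genes apart. Without any 1 of the 4 KO libraries the KO calls were fewer, at these genes and over all genes tested alike. The same held for the DBA calls without any 1 of the 4 DBA libraries.

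Mdm2 had 129 and 124 TPM in KO hyperoxia, against 58.5 and 54.7 TPM in KO room air, and 137 and 145 TPM in DBA hyperoxia, against 57.9 and 65.2 TPM in DBA room air. Its rise was 1.15 in KO and 1.18 in DBA, beside 1.12 in B6, and the KO peak lists held no peak at its promoter. Within 10 kb of its start site lay 1 KO hyperoxia peak and 1 peak kept in both airs in B6. The KO minus B6 difference was 0.03, with an interval of -0.22 to 0.28. Gdf15 had 286 and 267 TPM in KO hyperoxia, against 38.5 and 32.8 TPM in KO room air, and 24.1 and 22.9 TPM in DBA hyperoxia, against 5.03 and 2.34 TPM in DBA room air. Its rise was 2.92 in KO and 2.45 in DBA, while its level in DBA hyperoxia lay just above both B6 room-air values. Sesn2 rose by 0.80 in KO and 0.72 in DBA, and Slc19a2 by 0.49 in KO, a call lost without any KO library, and by 0.79 in DBA. Rps27l rose by 0.41 in KO and 0.35 in DBA, and each call was lost without any library of its own genotype but replicate 2 in room air, with changes between 0.26 and 0.43. Gtse1 rose by 0.68 in KO, a call lost without any of the 4 KO libraries. Of the 11 p53 targets with a hyperoxia-only promoter peak, 5 rose and 0 fell in KO, and 4 rose and 1 (Ephx1) fell in DBA, a call lost without any of the 4 DBA libraries.

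**Figure D5:**
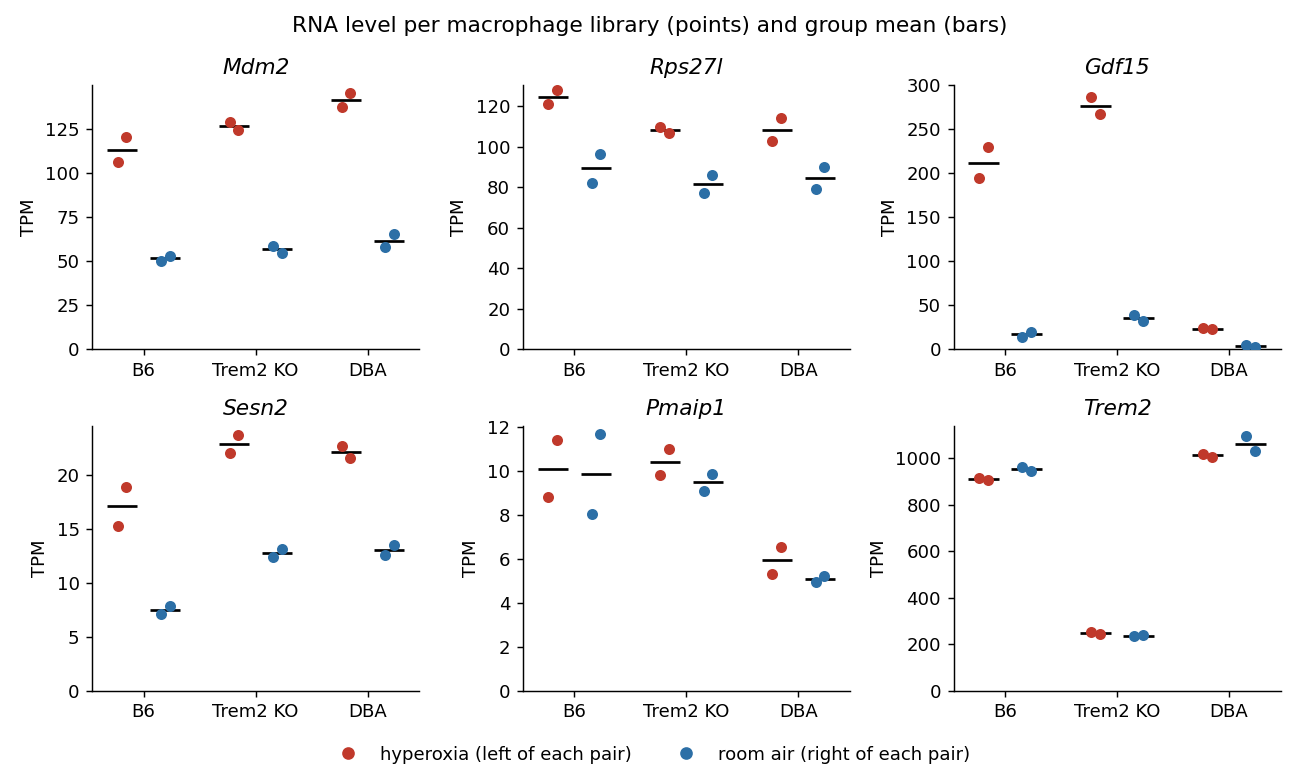
RNA level (TPM, axes start at 0) of 6 genes with a hyperoxia-only promoter peak in each of 12 macrophage libraries, with points for libraries, bars for means of 2, and hyperoxia left of room air in B6, Trem2 KO and DBA. Mdm2, Rps27l, Gdf15 and Sesn2 are higher in hyperoxia in all 3 genotypes without overlap, Pmaip1 overlaps between airs in B6, and Trem2 is lower in KO at 236 to 252 TPM. The share of all genes without overlap is not given.

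The difference in oxygen response between genotypes was called at few of these genes. Of the 197, 0 had a higher and 2 a lower log2 response in KO than in B6 by limma's interaction term. Of all genes tested, 0.657% were higher and 0.795% lower (1.45% in either direction). An unadjusted p under 0.05 was found at 31 of the 197, beside 1953 of all 12320 genes tested. In DBA minus B6, 0 were higher and 3 lower, against 0.422% and 0.552% of all genes tested (0.974% in either direction). There 38 of the 197 had an unadjusted p under 0.05, beside 2122 of all 12320 genes tested. Both of the calls in KO (Ltbp2 and Dmpk) and 2 of the 3 in DBA (Ltbp2 and Mir20a) were at genes under 1 TPM in B6, which entered the test through KO or DBA libraries, so they are no measured difference in response. Both comparisons use the same B6 libraries. Under a fit to the groups of each comparison alone, no gene was called in either. With libraries of the same mark or number taken as a block, 8 were higher and 4 lower in KO minus B6 (6.09% called). Of all genes tested, 359 were higher and 197 lower in that fit (4.51%). In DBA minus B6 it had 5 higher and 4 lower (4.57%), against 378 and 177 of all genes tested (4.5%). The absence of higher responses at these genes depended on the fit. For the 11 p53 targets the median difference in response was -0.30 in KO minus B6 and -0.37 in DBA minus B6, against 0.05 and 0.07 over all genes, and none of the 11 was called in either comparison.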

How the data were processed

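Of the deposited files, the 4 macrophage and 6 lung p53 peak lists and the macrophage expression table were used. The authors' TPM were computed for 24940 RefSeq transcripts from reads aligned to mm10; STAR, HOMER and Bowtie2 are named without versions in the submitters' processing notes. TPM give no read depth, and their sums over the listed genes were 529220 to 555113 per library. Peaks were called by HOMER on combined tag directories, at least 4-fold over input and at a false discovery rate of 0.001, per the file headers, and the score is the deposited tag count scaled to 10 M (mega) tags. From these, overlap (at least 1 base), distance to start sites and motif matches were computed in Python 3.11.15, and limma 3.58.1 (R 4.3.3) was run on log2(TPM + 1) over all 6 groups, with its variance trend. On simulated data for the B6 comparison, the fit over 12320 genes recovered 84% of 200 genes changed by 1 on the log2 scale. No 2 libraries held identical values. The regions, gene lists and tests were chosen with earlier results of these data known. Genes named were the 10 highest scores, the largest called rises and falls (8 each, at least 5 TPM, no predicted genes), members in other peak lists or with a close p53 site, up to 4 per gene list, and Trp53, Cdkn1a, Mdm2 and Trem2. Alternatives were a pseudocount of 0.1, no filter, quantile normalization, a replicate block, the groups of a comparison alone, a minimum change of 1, and each library left out. The distance to a neighbouring room-air peak is not reported here for 1 region.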

Additional observations from a re-analysis of the deposited data

Results flagged for a closer look

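Differences in the oxygen response between genotypes were called by limma's interaction term at Ltbp2, Dmpk, Rgl1 and Mir20a. Ltbp2, Dmpk and Mir20a lay under 1 TPM in B6 and were tested only because KO or DBA libraries were higher, so their terms show where the gene was expressed and are no measured difference in response. Ltbp2, a protein of the extracellular matrix, had 1.25 and 1.48 TPM in KO hyperoxia, against 10.2 and 8.05 TPM in KO room air, and 1.72 and 1.69 TPM in DBA hyperoxia, against 9.40 and 7.34 TPM in DBA room air. In B6 it stayed at no more than 0.194 TPM in either air. Its term was -1.97 in KO minus B6 and -1.65 in DBA minus B6. Dmpk, a protein kinase of muscle, had a term of -1.30 in KO minus B6, with 1.19 and 0.797 TPM in KO hyperoxia, against 5.39 and 4.08 TPM in KO room air, and no more than 0.205 TPM in B6. The 6 fibroblast markers moved beside these genes, as their sums in the report show, and their part in the values was not tested. Mir20a had a term of -1.97 in DBA minus B6, between -4.92 and -1.82 over the alternatives, and was listed at 0 in all libraries but those of DBA room air, which had 2.76 and 3.09 TPM. Its peak also lies near Mir17hg, Mir19b-1 and Mir92-1.

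Rgl1, expressed in all genotypes, differed by -0.78 in DBA minus B6 (adjusted p = 0.0449), where it had 28.7 and 28.9 TPM in DBA hyperoxia, against 27.7 and 28.9 TPM in DBA room air, and rose in B6. The difference lay between -0.92 and -0.63 over the alternatives and kept its call in 2 of 17. The B6 libraries carry another date code, so genotype and date cannot be told apart.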

How the results depend on the processing

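A distance of 2 kb gave 318 regions, against 205 at 1 kb. Full p53 sites numbered 0 without a mismatch and 6 with up to 2. Calls at these genes were 74 in B6, 59 in KO, 49 in DBA, 2 in KO minus B6 and 3 in DBA minus B6. They were 48, 39, 30, 1 and 2 without a filter, and 22, 91, 43, 0 and 0 with the groups of each comparison alone. All genes gave 3515, 2868, 2311, 179 and 120 in the same order, 2437, 2353, 1633, 174 and 91 without a filter, and 1000, 4707, 1837, 0 and 0 with the groups alone. A minimum change of 1 gave 12, 7, 7, 2 and 2 at these genes, and the counts over all genes were not taken at it. A pseudocount of 0.1 gave 77, 59, 50, 0 and 0, against 3614, 2757, 2195, 9 and 9 of all genes. Quantile normalization gave 56, 63, 59, 3 and 2, against 2575, 2882, 2356, 189 and 84. Leaving out a library gave 45 to 78 in B6, 27 to 66 in KO, 23 to 56 in DBA, 0 to 4 in KO minus B6 and 0 to 5 in DBA minus B6, where the lone library of a group is assumed to vary like the others. In B6, KO and DBA, the lowest of these counts fell on the same left-out library as the lowest count over all genes tested. The ranges therefore do not set these genes apart. Libraries were not taken as pairs. KO and DBA libraries share only replicate numbers, and B6 libraries only the marks F and MF, which recur in both airs with no stated meaning. Libraries with the same mark or number deviated together by 0.385 in B6, -0.0508 in KO and 0.079 in DBA. With the replicate block the calls were 90, 82, 73, 12 and 9, against 4600, 3895, 3307, 556 and 555 of all genes. The 12 were 8 higher and 4 lower, beside 359 higher and 197 lower of all genes. The 9 were 5 higher and 4 lower, beside 378 and 177 of all genes. The absence of higher differences at these genes did not hold there. No called change of a named gene turned its sign in any alternative. The cause of the moves was not tested. Tags per peak, about 11.8 at the median score, limit what the peak lists can show.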
